A study of Drosophila melanogaster with 53 samples.

Results

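The genes described here are 4 Turandot stress genes, TotA, TotC, TotM and TotX, and 6 genes of the JAK-STAT pathway, upd2, upd3, dome, hop, Stat92E and Socs36E, in muscle of adult Drosophila melanogaster. They were taken by name from the deposited expression tables and are 10 of the 11277 genes that these tables list. All 10 were listed in each of the 3 tables with values per library and in the authors' deposited table for germ-free flies.

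In flies the JAK-STAT pathway starts with the secreted ligands of the Unpaired family, to which upd2 and upd3 belong. They bind the receptor Domeless (dome), the kinase Hopscotch (hop) then acts on the transcription factor Stat92E, and Stat92E switches on its targets, among them Socs36E, which inhibits the pathway in a feedback loop. Turandot genes code for small secreted proteins that are made largely in the fat body after heat, infection and other stress, and TotA is a known read-out of JAK-STAT signalling there.

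RNA was taken from dissected muscle of conventionally kept flies at 25 °C and 60% humidity, with 3 libraries per group. In the first female set, at 3 d after eclosion, the genotypes were atg8ac320/c320 (called Atg8a), daw-3'UTRc82/c82 (daw 3'UTR), the same daw allele together with foxoc431/c431 (daw 3'UTR foxo) and the control line 5905, a w1118 stock (WT). In the second female set, also at 3 d, they were mir-252c328/c328 (miR-252), foxoc431/c431 (foxo), both alleles together, written mir-252c328 foxoc431/mir-252c328 foxoc431 (miR-252 foxo), that double mutant with dawc458/+ added (daw/+ miR-252 foxo), and 5905 (WT). The male set held 5905 flies at 3, 15, 30 and 45 d. Axenic foxoc431/c431 and axenic 5905 females at 3 d enter only through the authors' deposited table. The protocol names an antibiotic medium with 500 µg/ml ampicillin, 50 µg/ml tetracycline and 200 µg/ml rifamycin beside the standard one. The labels do not say how many flies a library pooled or whether libraries of a group came from separate cultures, so p-values measure the spread between these libraries, which may be technical.

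The 39 libraries held 2358162 to 4078819 reads in genes. Each value below is a normalised read count, scaled by the authors within its table. The scaling did not follow depth alone. In males 1 read counted as 1.41 to 1.65 at 3 d and as 0.754 to 0.932 later. Those libraries held 3142763 to 3286566 reads at 3 d and 2838395 to 3487569 later. Per read, male 3 d values are thus scaled up against later ages. A gene was called changed where its adjusted p from limma was under 0.05, with genes of a table mean of at least 10 tested and the adjustment made over all of them. Overlap of groups is given as a description, since the share of all genes without overlap was not counted. Male 3 d replicate 3 stood apart from its group. Its log2 values correlated at r = 0.903 and 0.900 with the other 3 d libraries, which correlated at 0.972 with each other. Its muscle markers summed to 55502 normalised reads, while the other 3 d libraries had 125717 and 187036, its fat body markers to 8394, against 21294 and 19487, and its gut markers to 72520, against 37322 and 31008. Muscle markers were present in every library, with none at 0 of the 9 used in males and the 10 used in females, and markers of fat body, hemocytes (blood cells) and gut were present too. In such bulk RNA, fewer cells of a type and less RNA per cell cannot be told apart.

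Atg8a RNA fell to 49.6 normalised reads in Atg8a mutants, against 3145 in WT, a log2 difference of -5.95 ± 0.15 (SE, adjusted p = 2.11e-12, limma). The foxo transcript was not lower in foxo mutants (753 against 582 normalised reads in WT, log2 difference 0.37, limma adjusted p = 0.0455), so its level does not check the label. The daw transcript was at 439 normalised reads in daw 3'UTR mutants, against 282 in WT (log2 difference 0.64, limma adjusted p = 0.103). In daw 3'UTR foxo mutants it was at 485 (log2 difference 0.79, limma adjusted p = 0.00514). In daw/+ miR-252 foxo mutants daw had 438, 361 and 468 normalised reads, against 414, 456 and 422 in miR-252 foxo mutants. The groups overlapped, so the daw level does not check that label.

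Per kilobase of exon, TotA was the most abundant of the 10 genes in each table and upd2 and upd3 the least. Group means of TotA ran from 3660 to 10800 normalised reads per kb in male muscle, from 850 to 2170 in the Atg8a and daw set and, in the set of miR-252 and foxo mutants, from 512 to 2030. TotC followed with 1470 to 6060, 351 to 724 and 188 to 1610 normalised reads per kb in the same tables. Stat92E was the most abundant of the JAK-STAT genes, with group means of 198 to 211, 180 to 192 and 184 to 224 normalised reads per kb. The receptor gene dome had 23.4 to 71.3 normalised reads per kb over all groups, Socs36E 17.7 to 92.9 and hop 15.4 to 26.2. The ligand genes lay between 0.153 and 10.6 for upd2 and between 0.424 and 14.3 for upd3. TotX had the widest gap between tables, at 490 to 590 normalised reads per kb in males and 8.69 to 68.2 in the female sets, although the tables were normalised separately and differ in sex, so that no test was made.

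TotA (FBgn0028396, chromosome 3R, 20871036 to 20871700, plus strand), TotC (FBgn0044812, 3R, 20872988 to 20873580, plus strand) and TotX (FBgn0044810, 3R, 20904917 to 20905518, minus strand) lie in one stretch of 3R in dm6. TotM (FBgn0031701, 2L, 5329857 to 5330464, plus strand) is the only Turandot gene among the members on another chromosome arm. TotX lies within the span of Grik, which runs on the other strand, without overlap of exons. TotA and TotC are neighbours of one family, and the sources used here do not give how reads that match both were counted. The ligand genes upd2 (FBgn0030904, X, 18240654 to 18243284, minus strand) and upd3 (FBgn0053542, X, 18277233 to 18284596, plus strand) are near each other. The other members are dome (FBgn0043903, X, 19676061 to 19683518), hop (FBgn0004864, X, 11360930 to 11368098), Stat92E (FBgn0016917, 3R, 20535323 to 20552311) and Socs36E (FBgn0041184, 2L, 18138675 to 18152417), all on the minus strand. Values count reads over exons, and the labels do not state whether counting was stranded.

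Male muscle at 3 to 45 d asked how these genes change with adult age. TotA and TotC were lower at each later age than at 3 d, TotM was lower at 45 d, and dome was higher at 45 d. Of 8 members tested, 2 fell at 15 d, 2 fell at 30 d, and at 45 d 3 fell and 1 rose. Over all 8393 genes tested, 7.97% were called at 15 d (2.35% higher and 5.62% lower), 13.5% at 30 d (5.4% higher and 8.09% lower) and 18.9% at 45 d (8.41% higher and 10.5% lower). The members' median log2 difference was -0.01, 0.08 and 0.04 at the 3 ages, against 0.06, 0.07 and 0.07 over all genes. The 3 comparisons share the 3 d libraries.

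TotA had 5690, 4215 and 8788 normalised reads at 3 d, then 2455, 2365 and 2369 at 15 d, 3272, 2372 and 1922 at 30 d, and 2477, 1520 and 2354 at 45 d. In normalised reads every later library lay below every 3 d library, and the 3 d libraries themselves spanned a wide range. In whole reads TotA at 30 d and 45 d overlapped with 3 d. It had 3946, 2986 and 5328 whole reads at 3 d, 3943 in 30 d replicate 1 and 3284 in 45 d replicate 1. The mean of TotA (± SD, n = 3 each) was 6231 ± 2330 for 3 d, 2396 ± 50.8 for 15 d, 2522 ± 687 for 30 d and 2117 ± 521 for 45 d flies. The log2 difference of TotA from 3 d was -1.31 ± 0.28 at 15 d, -1.27 at 30 d and -1.52 at 45 d, with limma adjusted p = 0.0137, 0.0108 and 0.00281.

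TotC had 2621, 2065 and 4950 normalised reads at 3 d, 695, 849 and 794 at 15 d, 1170, 752 and 551 at 30 d, and 889, 443 and 1071 at 45 d. It showed the same split as TotA in normalised reads, with no overlap between 3 d and any later age and no ordered trend after 15 d. In whole reads TotC had 1818, 1463 and 3001 at 3 d, and its highest later library, 30 d replicate 1, had 1410. The log2 difference from 3 d was -1.94 ± 0.39 at 15 d, -1.93 at 30 d and -1.99 at 45 d (limma adjusted p = 0.00853, 0.00612 and 0.00377).

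TotM had 349, 263 and 310 normalised reads at 3 d, 280, 102 and 78.1 at 15 d, 173, 149 and 57.6 at 30 d, and 78.4, 74.5 and 159 at 45 d. One 15 d library still lay within the 3 d range, while all 30 d and 45 d libraries lay below it in normalised reads. In whole reads 30 d replicate 1, at 208, lay within the 3 d range of 186 to 242. TotM averaged 104 at 45 d, against 307 at 3 d, a log2 difference of -1.64 ± 0.50 (limma adjusted p = 0.0412). At 15 d and 30 d its log2 differences of -1.22 and -1.41 had limma adjusted p = 0.182 and 0.0883. TotX had no such step. Its 3 d libraries held 319, 210 and 536 normalised reads and the 9 later ones 236 to 452, with log2 differences of -0.16, 0.03 and -0.04 and limma adjusted p of 0.792 to 0.963.

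The ligand genes were nearly absent at 3 d. upd2 had 0, 1 and 0 reads at 3 d, 1 read in each 15 d library, 3, 1 and 3 reads at 30 d, and 3, 5 and 10 reads at 45 d. All 45 d libraries lay above all 3 d libraries, on very few reads. Both ligand genes were under the filter in this table. With all 10657 listed genes in the fit, of which 15.2% were called at 45 d, upd2 had a log2 difference of 2.07 ± 0.54 (limma adjusted p = 0.0216). On whole reads the adjusted p of upd2 was 0.0487 by edgeR and 0.0949 by DESeq2. upd3 had 0, 2 and 0 reads at 3 d, 4, 1 and 2 at 15 d, 0, 4 and 2 at 30 d, and 9, 2 and 7 at 45 d, so that the groups overlapped (log2 difference 1.79 at 45 d, limma adjusted p = 0.118).

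The receptor gene dome had 134, 140 and 67.6 normalised reads at 3 d, 163, 173 and 137 at 15 d, 189, 178 and 187 at 30 d, and 198, 175 and 198 at 45 d. The lowest value was that of 3 d replicate 3, and all 30 d and 45 d libraries lay above all 3 d libraries. The mean of dome was 190 ± 13.3 at 45 d, against 114 ± 40.1 at 3 d (SD, n = 3 each), a log2 difference of 0.80 ± 0.24 with limma adjusted p = 0.0364. At 30 d the log2 difference was 0.76 (limma adjusted p = 0.0562).

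The kinase gene hop had 108, 97.4 and 28.0 normalised reads at 3 d and 87.2 to 140 in the later libraries. Stat92E had 1239, 1218 and 637 at 3 d and 1036 to 1150 later. In both genes 3 d replicate 3 was the lowest library of all 12. Socs36E had 74.98, 103 and 52.8 normalised reads at 3 d, 107, 104 and 83.9 at 15 d, 108, 117 and 115.2 at 30 d, and 111, 86.9 and 141 at 45 d. No call was made for hop, Stat92E or Socs36E at any age, with log2 differences at 45 d of 0.82, 0.12 and 0.57 (limma adjusted p = 0.181, 0.754 and 0.129). Between 30 d and 15 d and between 45 d and 30 d no member was called, where 0.0834% (0.0238% higher and 0.0596% lower) and 0% of all genes were called. No member had an unadjusted p under 0.05 in limma (0 of 8), a share that was not counted over all genes. edgeR and DESeq2 also called 0 members, where edgeR called 7 and 0 of all genes and DESeq2 called 60 and 21.

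**Figure D1:**
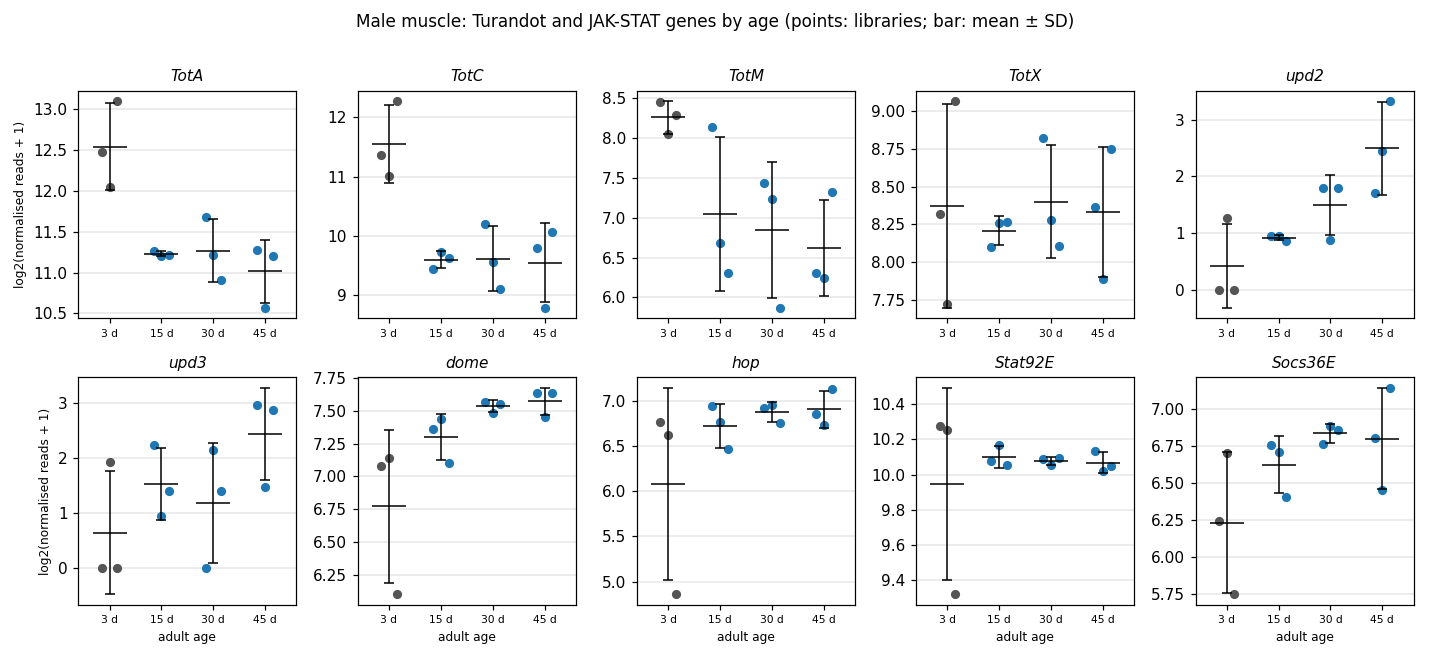
Levels of the 10 genes in male muscle as log2(normalised reads + 1) on the y axis against adult age on the x axis, 1 panel a gene, with points for libraries and bars for the mean ± SD of 3 libraries. The points of TotA and TotC at 15, 30 and 45 d all lie below those at 3 d, while TotX overlaps at all ages, and the low 3 d point of dome, hop and Stat92E is replicate 3.

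Without 3 d replicate 3, TotA and TotC were still called lower at each age. TotA then had log2 differences of -1.03, -0.99 and -1.24 at 15, 30 and 45 d (limma adjusted p = 0.000981, 0.000889 and 9.79e-05), and TotC had -1.58, -1.57 and -1.63 (adjusted p = 0.00071, 0.000498 and 0.000287). TotM was then called lower at 30 d (-1.40, limma adjusted p = 0.027) and at 45 d (-1.62, adjusted p = 0.0103), and dome was called higher at 30 d (0.43, adjusted p = 0.00476) and 45 d (0.47, adjusted p = 0.00211). In that fit Stat92E was lower by a small step at 30 d (-0.18, limma adjusted p = 0.0386) and 45 d (-0.20, adjusted p = 0.0249), the opposite sign to the fit with all libraries. The share of all genes called was then 30.8%, 42.1% and 48.7% at the 3 ages. With other single libraries left out, the TotA call was lost at 15 d without any 1 of the 15 d replicates (adjusted p of 0.0529 to 0.0543) and at 30 d without 30 d replicate 3 (0.0572), and the dome call at 45 d without any 1 of the 45 d replicates (0.0722 to 0.111). The TotM call at 45 d was lost without 3 d replicate 1 or 2 (adjusted p = 0.0869 and 0.0583) and without 45 d replicate 1 or 2 (0.136 and 0.138). Socs36E was called higher without 3 d replicate 2 at 30 d (log2 difference 0.84, adjusted p = 0.0329) and 45 d (0.80, 0.0316), and dome at 30 d without 3 d replicate 1 or 2 (0.0361 and 0.0278).

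Tissue markers moved along with age. Muscle markers summed to 36403 to 43304 normalised reads at 15 d, 33215 to 37187 at 30 d and 32318 to 33956 at 45 d, below the 55502 to 187036 at 3 d, and 6 of 9 tested were lower at 45 d. Fat body markers summed to 8394 to 21294 at 3 d, 22329 to 24993 at 15 d, 29613 to 30227 at 30 d and 26020 to 31042 at 45 d. Hemocyte markers summed to 2674 to 3741 at 3 d and 3229 to 4373 later. The share of reads in mitochondrial genes was 24.9% to 34.4% at 3 d, 12.9% to 13.4% at 15 d, 8.67% to 8.81% at 30 d and 5.51% to 7.91% at 45 d. Like the normalised reads of TotA and TotC, it was lower in every later library than in any 3 d library. The part of the marked tissues and of the mitochondrial share in the fall of TotA, TotC and TotM and the rise of dome was not tested.

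Few other genes of the pathway were called with all libraries in the fit. None of 10 regulators of JAK-STAT signalling was called at 15 d or 45 d and 1 at 30 d, lwr, the SUMO-conjugating enzyme gene, which was lower by a log2 difference of -0.82 (limma adjusted p = 0.0201). Of 7 stress kinase and NF-kappaB genes, 1 rose at 15 d, 2 at 30 d and 3 at 45 d. Rel, which codes for an NF-kappaB factor of innate immunity, had 801 normalised reads at 45 d, against 350 at 3 d, a log2 difference of 1.19 ± 0.19 (limma adjusted p = 0.000914). The p38 kinase gene p38c rose at each age, by 1.13, 1.67 and 1.45 in log2 (limma adjusted p = 0.0343, 0.0024 and 0.00455), and Mekk1, a kinase upstream of p38, by 0.62 at 45 d (adjusted p = 0.0433). Of 4 other STAT target genes, 1 was called, vir-1, at 3780 normalised reads at 45 d, against 2209 at 3 d (log2 difference 0.87, limma adjusted p = 0.0293). The receptor-like gene et, an inhibitor of the pathway, rose to 56.7 normalised reads at 45 d, against 38.6 at 3 d (log2 difference 0.55, limma adjusted p = 0.048). Without 3 d replicate 3, when 30.8%, 42.1% and 48.7% of all genes were called, so were more of these lists. Of the 10 regulators 2 were then lower at 15 d, 4 at 30 d and 4 at 45 d, with 1 higher at 45 d. Of the 7 stress genes 3, 4 and 4 were higher and 1 was lower at the 3 ages. Of the 4 STAT targets 1 was higher at each age, and 2, 1 and 2 were lower. With all libraries, at 45 d Rel, p38c, Mekk1 and vir-1 were higher while TotA, TotC and TotM were lower in the same libraries.

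The set with Atg8a and daw 3'UTR mutants compared 3 genotypes with WT in 3 d female muscle. Loss of Atg8a, which codes for the ubiquitin-like protein of autophagosome membranes, went with low TotX and left the other members uncalled. TotX had 5.78, 2.91 and 7.002 normalised reads in Atg8a mutants (7, 4 and 8 reads), against 53.3, 18.2 and 48.7 in WT (48, 15 and 39 reads). Each Atg8a library lay below each WT library of the set, and TotX was at 37.7 to 45.5 in the other mutants of the set. In WT of the second female set, of the same line, sex and age, TotX had 5.29, 13.97 and 6.24 normalised reads. That is near the Atg8a values, so low TotX was not particular to Atg8a mutants across sets. The sets were normalised separately and were not tested against each other. The log2 difference of TotX was -2.64 ± 0.35 (limma adjusted p = 0.000362). It was the 1 call among 8 members tested, where 9.89% of all 8271 genes were called (5.16% higher and 4.73% lower), and the median of the members was -0.28, against 0.00 over all genes.

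TotA in Atg8a mutants had 884, 287 and 306 normalised reads, against 1887, 436 and 559 in WT, and TotC had 349, 107 and 102, against 801, 162 and 187 in WT. The groups overlapped, with WT replicate 1 the highest library for both genes and Atg8a replicate 1 the next. Neither TotA (log2 difference -0.85 ± 0.59, limma adjusted p = 0.397) nor TotC (-0.89, adjusted p = 0.402) was called, and TotM was at -0.44 (adjusted p = 0.717). The pathway genes dome, hop, Stat92E and Socs36E had log2 differences of -0.11, 0.16, -0.04 and 0.04 (limma adjusted p of 0.489 to 0.947). upd2 had 3, 2 and 4 reads in Atg8a mutants, against 1, 0 and 0 in WT, and was not called with all genes in the fit (limma adjusted p = 0.15). The hemocyte markers summed to 2123 to 2676 normalised reads in Atg8a mutants, against 3083 to 3360 in WT, with 3 of 9 lower, and the fat body markers to 15341 to 21155, against 22566 to 28747 in WT. Their part in the TotX result was not tested.

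Of the other STAT target genes, 2 of 4 rose in Atg8a mutants. vir-1 had 2166 normalised reads in Atg8a mutants, against 1256 in WT (log2 difference 0.79, limma adjusted p = 0.000208), and vkg, a type IV collagen gene, differed by 0.45 (adjusted p = 0.0246). Of the 10 regulators 1 fell, nej, the gene of the histone acetyltransferase CBP (-0.71, limma adjusted p = 0.00442).

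In daw 3'UTR mutants, altered in the untranslated region of the activin-like ligand gene dawdle, none of 8 members was called, while 3.12% of all genes were (1.16% higher and 1.96% lower). TotA had 203, 736 and 687 normalised reads, against 1887, 436 and 559 in WT, with overlap of the groups (log2 difference -0.72, limma adjusted p = 0.661). TotM differed by -1.20 (limma adjusted p = 0.44) and Socs36E by -0.19 (adjusted p = 0.845). No member had an unadjusted p under 0.05 in limma (0 of 8), a share that was not counted over all genes. edgeR and DESeq2 also called 0 members, where they called 242 and 279 of all genes. None of the 10 regulators, 7 stress genes and 4 STAT targets was called either.

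With the foxo mutation added to the daw 3'UTR mutation, Socs36E and dome rose and TotM fell against WT. These were 3 of 8 members tested, a share near that of all genes, of which 35.8% were called (16.7% higher and 19.1% lower). The median of the members was 0.22, against 0.01 over all genes. upd2 and upd3, under the filter here, also rose with all genes in the fit, while hop did not pass against WT and was lower than in daw 3'UTR mutants.

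Socs36E had 411, 391 and 174 normalised reads in daw 3'UTR foxo mutants, against 78.8, 71.5 and 60.0 in WT and 59.8, 48.5 and 78.2 in daw 3'UTR mutants. The lowest double mutant library was above the highest of either other group, although it was well under the other double mutant libraries. Socs36E was 4.31-fold higher than in WT (log2 difference 2.11 ± 0.28, limma adjusted p = 6.6e-05) and differed by 2.30 ± 0.28 from daw 3'UTR mutants (adjusted p = 5.44e-05).

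The receptor gene dome had 345, 318 and 268 normalised reads in daw 3'UTR foxo mutants, against 209, 165 and 126 in WT. The groups did not overlap, and the means were 310 ± 39.2 in the double mutant and 167 ± 41.2 in WT (SD, n = 3 each). The log2 difference of dome was 0.92 ± 0.15 against WT (limma adjusted p = 0.000331) and 0.88 against daw 3'UTR mutants (adjusted p = 0.000636).

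upd3 had 36, 29 and 17 reads in daw 3'UTR foxo mutants, against 3, 1 and 3 in WT and 1, 3 and 1 in daw 3'UTR mutants. upd2 had 22, 11 and 6 reads in daw 3'UTR foxo mutants, against 1, 0 and 0 in WT and 0, 0 and 1 in daw 3'UTR mutants. Both ligand genes were at a few reads in each library of WT and of the single mutant, and all double mutant libraries lay above them. With all 10222 genes in the fit, where 31.1% were called, the log2 difference from WT was 2.90 ± 0.46 for upd3 (limma adjusted p = 0.000214) and 3.26 ± 0.56 for upd2 (adjusted p = 0.00043), and edgeR on whole reads gave 3.24 and 4.66 (adjusted p = 0.000154 and 0.00162). The third ligand gene upd1, which is no member, had 7, 2 and 4 reads in the double mutant and none in the other 9 libraries of the set.

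TotM had 33.3, 37.95 and 31.6 normalised reads in daw 3'UTR foxo mutants, against 376, 115.1 and 66.2 in WT. All double mutant libraries lay below all WT libraries and were close to each other, while the WT libraries spread widely. The log2 difference of TotM was -2.03 ± 0.64 (limma adjusted p = 0.0221). It was not called without WT replicate 1 (-1.33, adjusted p = 0.116) nor without double mutant replicate 1 or 3 (adjusted p = 0.0572 and 0.0511), and it was not called against daw 3'UTR mutants (-0.83, adjusted p = 0.355). TotA had 1265, 1806 and 700 normalised reads in daw 3'UTR foxo mutants, against 1887, 436 and 559 in WT, and TotC had 387, 522 and 213, against 801, 162 and 187, so that the groups overlapped in both genes (log2 differences 0.60 and 0.27, limma adjusted p = 0.461 and 0.766).

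hop had 76.5, 99.2 and 103 normalised reads in daw 3'UTR foxo mutants, against 134, 133 and 130 in daw 3'UTR mutants, and did not overlap between them (log2 difference -0.52 ± 0.14, limma adjusted p = 0.00967; without double mutant replicate 1, -0.39 and adjusted p = 0.0534). Against WT its log2 difference was -0.30 (limma adjusted p = 0.101, and -0.40 with 0.0485 without WT replicate 2), and Stat92E was at 0.06 (adjusted p = 0.736). Against daw 3'UTR mutants 3 of 8 members were called, Socs36E and dome higher and hop lower, as were 30.6% of all genes (14.4% higher and 16.2% lower).

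Other pathway genes moved in the double mutant too. Of 4 STAT targets 3 rose against WT, namely vkg with 2232 normalised reads in daw 3'UTR foxo mutants, against 934 in WT (log2 difference 1.26 ± 0.12, limma adjusted p = 2.32e-06), the transcription factor gene zfh1 with 245, against 161 in WT (0.63, adjusted p = 0.00315), and vir-1 (0.50, adjusted p = 0.000981). Rel had 786 normalised reads in daw 3'UTR foxo mutants, against 261 in WT (log2 difference 1.52 ± 0.22, limma adjusted p = 0.000123), and p38c differed by 1.32 (adjusted p = 0.0059), 2 of the 7 stress genes. Of the 10 regulators 1 rose, the endosomal sorting gene Stam (0.41), and 3 fell, nej (-0.50), apt (-0.42) and chinmo (-0.85), the last named a transcription factor gene downstream of the pathway in other tissues. The inhibitor gene et was at 65.4 normalised reads in daw 3'UTR foxo mutants, against 40.3 in WT (log2 difference 0.70, limma adjusted p = 0.0416).

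Hemocyte markers were higher in the same libraries. They summed to 7929, 9470 and 7998 normalised reads in daw 3'UTR foxo mutants, against 3083, 3360 and 3349 in WT and 3247, 3399 and 3651 in daw 3'UTR mutants, none of the 10 was at 0, and 8 of 9 tested were higher (median log2 difference 0.96). Muscle markers summed to 128573 to 175599 normalised reads in daw 3'UTR foxo mutants, against 88781 to 109835 in WT, and neuron markers were lower in 5 of 6. Their part in the rise of Socs36E, dome, upd2 and upd3 was not tested.

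**Figure D2:**
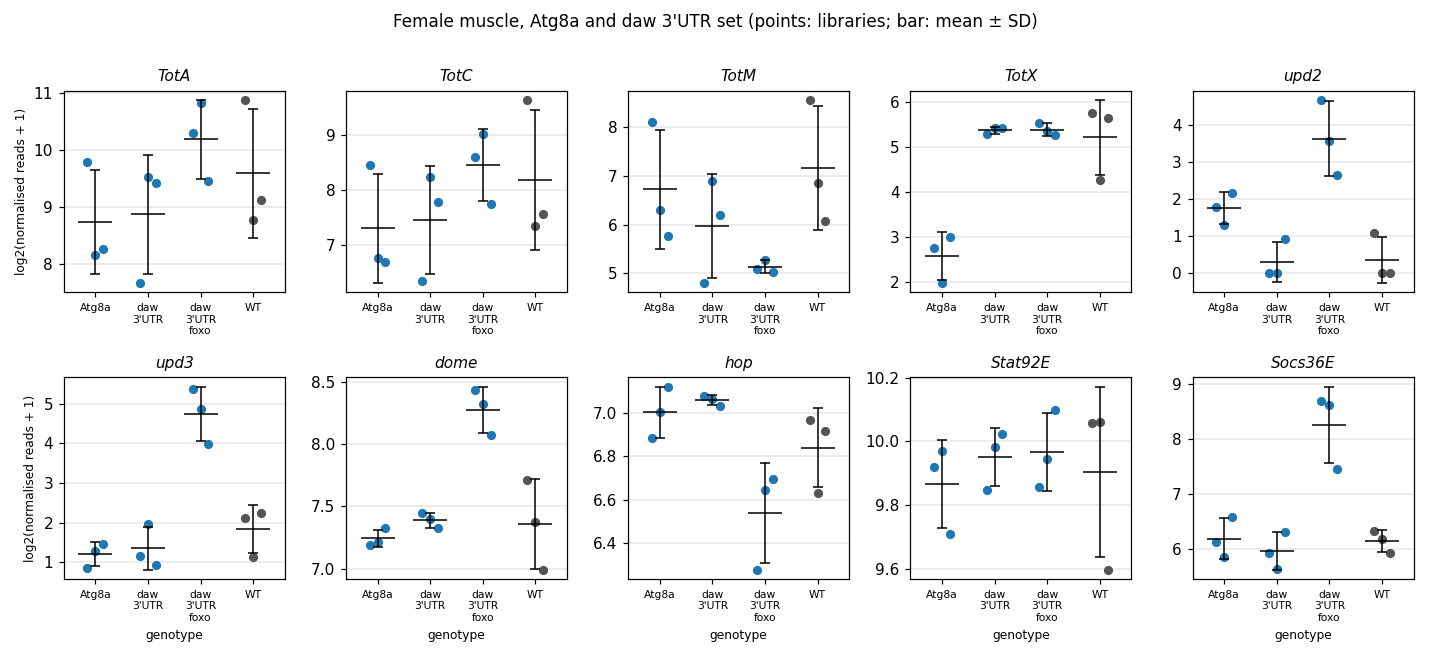
Levels of the 10 genes in 3 d female muscle of Atg8a mutants, of daw 3'UTR mutants with and without the foxo mutation, and of WT, as log2(normalised reads + 1) on the y axis and genotype on the x axis, with points for libraries and bars for the mean ± SD of 3 libraries. Within this set TotX is low in Atg8a mutants alone, and upd2, upd3, dome and Socs36E are highest in daw 3'UTR foxo mutants, with no overlap with WT.

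The second female set compared loss of miR-252, a microRNA, loss of foxo, the transcription factor that insulin signalling holds back, their combination, and the combination with 1 mutant copy of daw. The 4 comparisons share the WT libraries. TotX and upd3 passed the filter of this table only through genotypes in which they were high, so counts and medians over the 9 members tested are a description, and each count is also given over the other 7. In miR-252 mutants the Turandot genes TotA, TotC and TotX were higher and no JAK-STAT gene was called, 3 of 9 members (2 of 7), where 4.39% of all 8357 genes were called (1.88% higher and 2.51% lower). The median log2 difference was 0.25 over the 7 members, against 0.00 over all genes.

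TotC had 546, 1440 and 574 normalised reads in miR-252 mutants, against 161, 91.8 and 64.4 in WT. All mutant libraries lay well above WT, and TotC was 7.73-fold higher (log2 difference 2.95 ± 0.38, limma adjusted p = 6.43e-05). TotA had 742, 2087 and 695 normalised reads in miR-252 mutants, against 388, 281 and 219 in WT, 3.55-fold higher (1.83 ± 0.34, adjusted p = 0.0031). Replicate 2 was the highest mutant library for TotA, TotC and TotX alike. TotX had 25.0, 61.7 and 27.2 normalised reads in miR-252 mutants, against 5.29, 13.97 and 6.24 in WT (log2 difference 2.03 ± 0.43, limma adjusted p = 0.00836). The genotypes that took TotX past the filter were this one and daw/+ miR-252 foxo, and its call was lost without miR-252 replicate 2 (1.62, adjusted p = 0.0643) or WT library 1 (1.78, adjusted p = 0.0518).

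TotM, in contrast to these values, had 36.5, 40.5 and 26.2 normalised reads in miR-252 mutants, against 43.3, 32.9 and 30.1 in WT (log2 difference -0.05, limma adjusted p = 0.974). Socs36E had 91.7, 97.6 and 69.9, against 84.6, 53.9 and 74.8 in WT (0.29, adjusted p = 0.688), and dome had 188, 177 and 155, against 170, 141 and 159 in WT (0.14, adjusted p = 0.816). The groups overlapped for TotM, Socs36E and dome. upd2 had 1, 2 and 0 reads in miR-252 mutants, against 0, 3 and 0 in WT, and upd3 5, 7 and 1, against 1, 6 and 0 in WT (log2 difference 0.89, limma adjusted p = 0.674). hop and Stat92E were at 0.25 and 0.20 (limma adjusted p = 0.441 and 0.443). The groups did not overlap for hop, at 119, 127 and 119 normalised reads in miR-252 mutants, against 113, 95.8 and 98.7 in WT.

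None of the 10 regulators, 7 stress genes, 4 STAT targets and et was called in miR-252 mutants. Fat body markers summed to 22226 to 28855 normalised reads in miR-252 mutants, against 25036 to 29984 in WT, with 1 of 7 higher, the lipase gene bmm. Gut markers summed to 30765 to 34388 in miR-252 mutants, against 44884 to 51704 in WT, with 5 of 8 lower, and no hemocyte marker was called. The part of these tissues in the rise of TotA, TotC and TotX was not tested.

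In foxo mutants Socs36E and dome rose and TotM fell, 3 of 9 members (3 of 7), where 11.8% of all genes were called (5.54% higher and 6.28% lower). Socs36E had 135, 181 and 191 normalised reads in foxo mutants, against 84.6, 53.9 and 74.8 in WT, without overlap (2.37-fold, log2 difference 1.24 ± 0.25, limma adjusted p = 0.0026). dome had 270, 267 and 205 in foxo mutants, against 170, 141 and 159 in WT, also without overlap (0.65 ± 0.19, adjusted p = 0.0261). The call of dome was lost without WT library 2 or 3 (adjusted p = 0.0908 and 0.0693) and without foxo replicate 1 or 2 (0.108 and 0.0972).

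TotM had 5, 17 and 6 reads in foxo mutants (5.53, 16.4 and 6.28 normalised), against 43.3, 32.9 and 30.1 normalised reads in WT. All foxo libraries lay below WT, with a log2 difference of -1.94 ± 0.38 (limma adjusted p = 0.00217). TotA had 408, 342 and 251 normalised reads in foxo mutants, against 388, 281 and 219 in WT, and TotC 126, 82.2 and 90.1, against 161, 91.8 and 64.4 in WT, and both overlapped (log2 differences 0.18 and -0.01, limma adjusted p = 0.795 and 0.993). TotX was at 6.64, 5.80 and 14.7 in foxo mutants, against 5.29, 13.97 and 6.24 in WT (0.09, adjusted p = 0.935). Of the 4 Turandot genes, TotM was called in foxo mutants, and TotA and TotC in miR-252 mutants. TotX was also called in miR-252 mutants, but it passed the filter only through genotypes in which it was high.

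upd3 had 5, 12 and 12 reads in foxo mutants, against 1, 6 and 0 in WT (log2 difference 2.09 ± 0.75, limma adjusted p = 0.0749, and 2.86 with adjusted p = 0.0208 without WT library 2). It passed the filter in this table through the genotypes in which it was high. upd2, under the filter, had 5, 9 and 4 reads in foxo mutants, against 0, 3 and 0 in WT, with no overlap. With all 10258 genes in the fit, of which 9.7% were called, its log2 difference was 2.12 (limma adjusted p = 0.0197), and edgeR gave 2.46 with adjusted p = 0.0891. Hemocyte markers summed to 5383, 4940 and 6524 normalised reads in foxo mutants, against 4482, 3877 and 3932 in WT, with 4 of 9 higher, and their part in the result was not tested. Of the other genes, et (0.60, limma adjusted p = 0.0395) and vkg (0.41, adjusted p = 0.011) were called higher and no regulator or stress gene was.

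In miR-252 foxo double mutants 5 of 9 members were higher (4 of 7) and none was lower, where 25.2% of all genes were called (12.4% higher and 12.9% lower). The 5 were the receptor gene dome, the inhibitor gene Socs36E, TotA and TotC, and the ligand gene upd3, which passed the filter chiefly through this genotype. The median of the 7 members was 1.12, against 0.01 over all genes.

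Socs36E had 282, 301 and 341 normalised reads in miR-252 foxo mutants, against 84.6, 53.9 and 74.8 in WT, 4.35-fold higher (log2 difference 2.12 ± 0.25, limma adjusted p = 4.51e-06). dome had 435, 326 and 282 in miR-252 foxo mutants, against 170, 141 and 159 in WT (1.12 ± 0.19, adjusted p = 0.000148). upd3 had 30, 48 and 32 reads in miR-252 foxo mutants, against 1, 6 and 0 in WT (3.70 ± 0.75, adjusted p = 0.000978, and from 3.06 to 4.46 with 1 WT library left out). Every double mutant library lay above every WT library in these 3 genes, and also in upd2, hop, TotA and TotC. This is a description, since the share of all genes without overlap was not counted. upd2 had 22, 17 and 36 reads in miR-252 foxo mutants, against 0, 3 and 0 in WT (with all genes in the fit and 21.5% of them called, log2 difference 3.75 ± 0.57, limma adjusted p = 5.87e-05). hop was at 115 to 122 normalised reads in miR-252 foxo mutants, against 95.8 to 113 in WT (0.21, limma adjusted p = 0.285), and Stat92E at 893 to 993, against 945 to 1057 in WT (-0.08, adjusted p = 0.657).

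TotA had 493, 799 and 789 normalised reads in miR-252 foxo mutants, against 388, 281 and 219 in WT (log2 difference 1.23, limma adjusted p = 0.0123). TotC had 163, 462 and 242 in miR-252 foxo mutants, against 161, 91.8 and 64.4 in WT (1.41, adjusted p = 0.00995). The groups touched for TotC, since its lowest mutant library was barely above the highest WT library. Without WT library 3 neither was called (adjusted p = 0.0689 for TotA and 0.0691 for TotC), nor without double mutant replicate 2 (0.0522 and 0.076), and TotA was not called without replicate 3 (0.0551). TotM had 34.4, 96.5 and 42.6 normalised reads in miR-252 foxo mutants, against 43.3, 32.9 and 30.1 in WT (0.56, adjusted p = 0.301), and TotX overlapped with WT (0.25, adjusted p = 0.721).

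The double mutant was also set against each of its single mutants. Against foxo mutants, 3 of 9 members rose (3 of 7; 9.01% of all genes were called, 4.74% higher and 4.27% lower). These were TotM with 34.4, 96.5 and 42.6 normalised reads in miR-252 foxo mutants, against 5.53, 16.4 and 6.28 in foxo mutants (log2 difference 2.50 ± 0.38, limma adjusted p = 0.000426), TotC (1.42, adjusted p = 0.0255) and Socs36E (0.87, adjusted p = 0.0336). All double mutant libraries lay above all foxo libraries for Socs36E, but its call was lost without any 1 of the foxo replicates or without double mutant replicate 2 or 3 (adjusted p of 0.0545 to 0.143), and the TotC call without replicate 2 or 3 of either group (0.0724 to 0.138). TotA was at 1.05 (limma adjusted p = 0.0637), and was called without double mutant replicate 1 (1.27, 0.0421). upd2 had 22, 17 and 36 reads in the double mutant, against 5, 9 and 4 in foxo mutants (1.63, limma adjusted p = 0.0931, and edgeR adjusted p = 0.0464).

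Against miR-252 mutants, 3 of 9 members were higher (2 of 7) and 2 lower (1 of 7), where 18.9% of all genes were called (9.45% higher and 9.49% lower). Socs36E (log2 difference 1.83, limma adjusted p = 4.83e-05), dome (0.98, adjusted p = 0.000994) and upd3 (2.81, adjusted p = 0.0119) were higher in the double mutant. The upd3 call was lost without miR-252 replicate 3 (2.22, adjusted p = 0.0707) or double mutant replicate 2 (2.55, adjusted p = 0.0573). TotC had 163, 462 and 242 normalised reads in miR-252 foxo mutants, against 546, 1440 and 574 in miR-252 mutants (-1.54, adjusted p = 0.00802), and TotX had 12.6, 6.44 and 10.4, against 25.0, 61.7 and 27.2 in miR-252 mutants (-1.77, adjusted p = 0.00724). TotA was at -0.60 with overlap of the groups (limma adjusted p = 0.251), and Stat92E at -0.28 (adjusted p = 0.096, and -0.39 with 0.0202 without miR-252 replicate 2).

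The test of whether the effects of the 2 mutations add up on the log2 scale was passed by 1 member, TotM, with an interaction of 2.55 ± 0.54 (limma adjusted p = 0.0138), where 2.09% of all genes passed (1.18% higher and 0.909% lower). Its level was 57.8 ± 33.8 normalised reads in miR-252 foxo mutants, 34.4 ± 7.38 in miR-252 mutants, 9.42 ± 6.10 in foxo mutants and 35.5 ± 6.96 in WT (SD, n = 3 each), so it was low in foxo mutants that kept miR-252 and not in those that lacked it. The interaction was -1.53 for TotC (limma adjusted p = 0.19), -1.86 for TotX (0.152), -0.78 for TotA (0.565) and 0.59 for Socs36E (0.543), none of which passed.

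With 1 mutant copy of daw added to the double mutant, 3 of 9 members were higher than in WT (2 of 7), Socs36E, dome and TotX, where 15.9% of all genes were called (7.69% higher and 8.17% lower). Socs36E had 258, 265 and 113 normalised reads in daw/+ miR-252 foxo mutants, against 84.6, 53.9 and 74.8 in WT (log2 difference 1.49 ± 0.25, limma adjusted p = 0.000376). dome had 361, 242 and 203 in daw/+ miR-252 foxo mutants, against 170, 141 and 159 in WT (0.74, adjusted p = 0.0104, and 0.0636 without replicate 1). Replicate 3 was the lowest of its group for Socs36E, dome, upd2, upd3 and TotA, and still above WT for Socs36E and dome. TotX had 37.1, 21.6 and 43.8 normalised reads in daw/+ miR-252 foxo mutants, against 5.29, 13.97 and 6.24 in WT (1.94, limma adjusted p = 0.00433). TotA, TotC, TotM and upd3 were not called (0.81, 1.05, 0.92 and 2.13 in log2, limma adjusted p = 0.121, 0.0683, 0.108 and 0.0579), but without daw/+ miR-252 foxo replicate 3 TotA (1.16, 0.0315), TotC (1.27, 0.0496) and upd3 (3.01, 0.00707) were. TotC was also called without WT library 1 (1.40, 0.0295) and upd3 without WT library 2 (2.89, 0.0158). upd2 had 12, 20 and 6 reads in daw/+ miR-252 foxo mutants, against 0, 3 and 0 in WT (3.07 with all genes in the fit, of which 13.5% were called, limma adjusted p = 0.000921).

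Against the miR-252 foxo double mutant, the daw copy went with 1 call of 9 members (0 of 7), where 5.09% of all genes were called (2.79% higher and 2.3% lower). TotX had 37.1, 21.6 and 43.8 normalised reads in daw/+ miR-252 foxo mutants, against 12.6, 6.44 and 10.4 in miR-252 foxo mutants (log2 difference 1.69 ± 0.43, limma adjusted p = 0.0273), and it lost its call without miR-252 foxo replicate 2 or 3 or daw/+ miR-252 foxo replicate 1 or 3 (adjusted p of 0.0845 to 0.114). Socs36E was lower in all 3 libraries, at 258, 265 and 113 in daw/+ miR-252 foxo mutants, against 282, 301 and 341 in miR-252 foxo mutants, but did not pass (-0.63, limma adjusted p = 0.165). The log2 difference of upd3 was -1.57 (limma adjusted p = 0.261) and that of dome -0.39 (adjusted p = 0.264). Of the other genes Rel (-0.60, limma adjusted p = 0.0215), Stam (-0.49, adjusted p = 0.0171) and vkg (-0.49, adjusted p = 0.0106) fell.

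**Figure D3:**
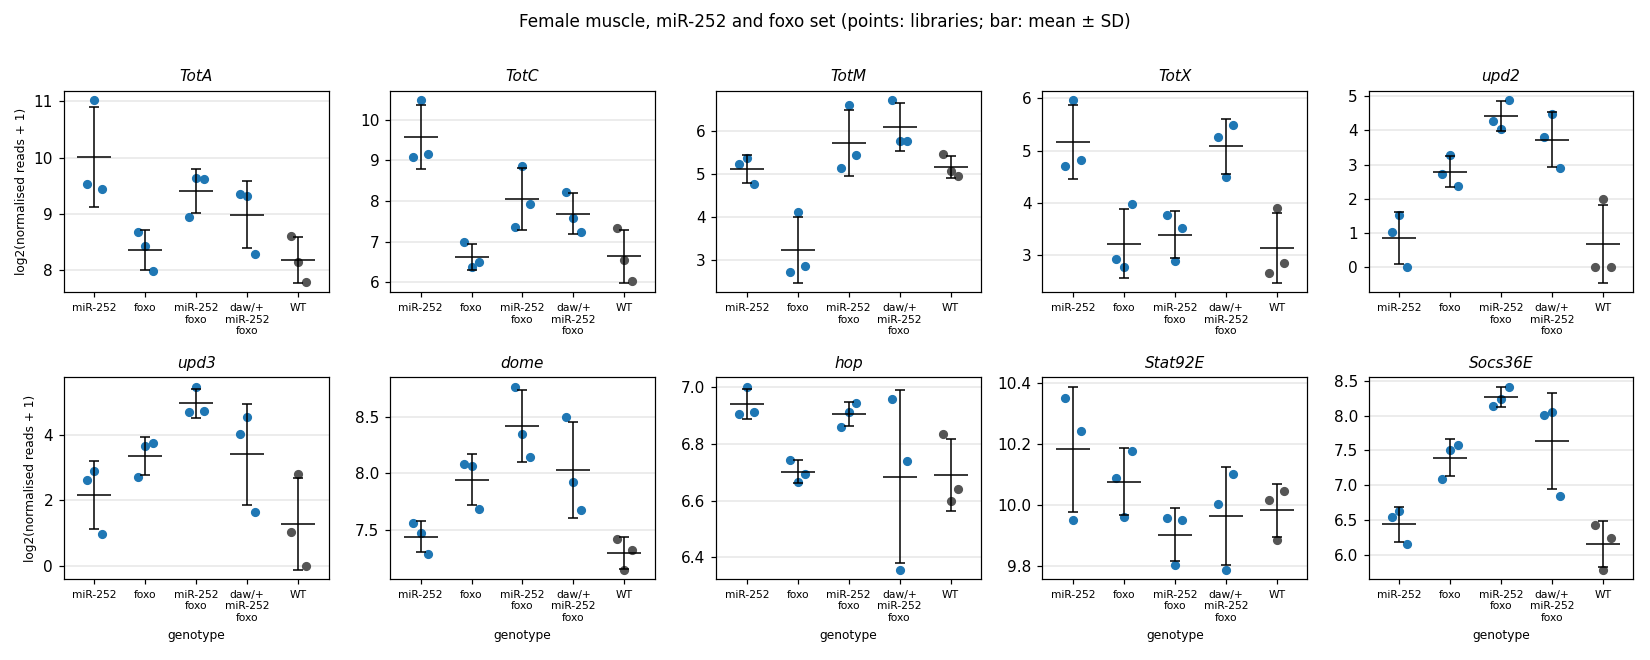
Levels of the 10 genes in 3 d female muscle of the miR-252, foxo, miR-252 foxo and daw/+ miR-252 foxo mutants and WT, as log2(normalised reads + 1) on the y axis and genotype on the x axis, with points for libraries and bars for the mean ± SD of 3 libraries. TotA and TotC are highest in miR-252 mutants, TotM is lowest in foxo mutants, and upd2, upd3, dome and Socs36E have their highest means in miR-252 foxo mutants.

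Of the other genes, et was called higher in the 3 genotypes of this set that lacked foxo, and Rel in those 2 that also lacked miR-252. Rel had 954 ± 159 normalised reads in miR-252 foxo mutants and 627 ± 83.4 in daw/+ miR-252 foxo mutants, against 358 ± 28.3 in WT (SD, n = 3 each), with log2 differences of 1.40 ± 0.15 and 0.80 (limma adjusted p = 1.32e-06 and 0.000805). In miR-252 foxo mutants zfh1 had 188 normalised reads, against 123 in WT (0.59, limma adjusted p = 0.0289), vkg 2098, against 1239 in WT (0.75, adjusted p = 1.82e-05), and et differed by 0.64 (adjusted p = 0.0152). In daw/+ miR-252 foxo mutants et differed by 0.67 (limma adjusted p = 0.018), and neither vkg (0.26, adjusted p = 0.0888) nor zfh1 (0.13, adjusted p = 0.703) was called. In foxo mutants Rel was at 0.39 (limma adjusted p = 0.0886) and zfh1 at 0.34 (adjusted p = 0.281), also not called. Of the 10 regulators 1 was called in that double mutant, Stam (0.46, limma adjusted p = 0.00509), and of the 7 stress genes Rel alone.

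Hemocyte markers summed to 7182, 7024 and 8786 normalised reads in miR-252 foxo mutants and to 5781, 4902 and 6003 in daw/+ miR-252 foxo mutants, against 4482, 3877 and 3932 in WT. In miR-252 foxo mutants 8 of 9 tested were higher (median log2 difference 0.74), with none of the 10 at 0, and in daw/+ miR-252 foxo mutants 2 of 9, the prophenoloxidase genes PPO1 and PPO2. Fat body sums overlapped, at 25404 to 28692 in miR-252 foxo mutants and 17340 to 30264 in daw/+ miR-252 foxo mutants, against 25036 to 29984 in WT. Of 7 fat body markers tested, 2 were higher and 1 was lower in miR-252 foxo mutants, and 0 were called in daw/+ miR-252 foxo mutants. Gut markers were lower in miR-252 foxo mutants, at 28571 to 36847, against 44884 to 51704 in WT, with 6 of 8 lower. The 3 genotypes with the highest Socs36E, daw 3'UTR foxo, miR-252 foxo and daw/+ miR-252 foxo, all had more hemocyte marker reads than the WT of their set. The part of hemocyte RNA in these results was not tested.

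**Figure D4:**
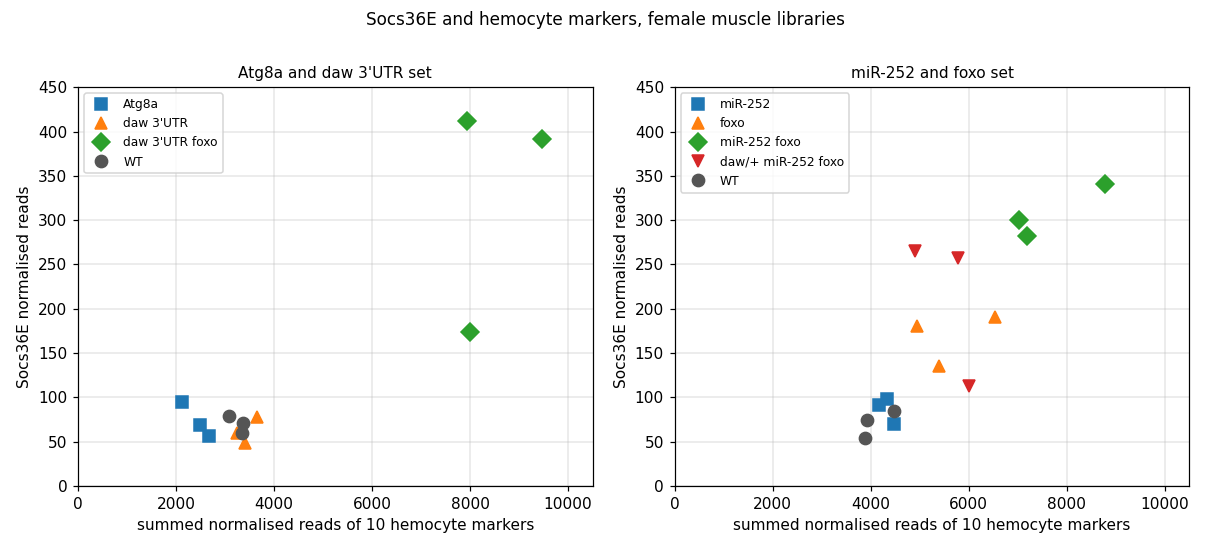
Socs36E in normalised reads on the y axis against the summed normalised reads of 10 hemocyte marker genes on the x axis, for each female library, with the Atg8a and daw 3'UTR set on the left and the miR-252 and foxo set on the right. Double mutants with foxo lie at the upper right, with marker sums of 7024 to 9470 and Socs36E at 174 to 411, and WT libraries lie at the lower left, with Socs36E at 53.9 to 84.6.

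Axenic foxo mutants and axenic WT, 3 d females in axenic, or germ-free, culture, addressed the same mutation without live microbes. Of the 10 members, 3 were called in the authors' deposited table at an adjusted p under 0.05, where 6.25% of 9371 genes with an adjusted p were (3.01% higher and 3.24% lower). TotM was lower in axenic foxo mutants than in axenic WT, with a log2 difference of -2.02 (SE 0.29, adjusted p = 1.56e-09) in the authors' deposited table, and TotX was lower too (-0.88, SE 0.26, adjusted p = 0.0186). The receptor gene dome was higher, at 1.13 (SE 0.24, adjusted p = 0.000175) in the authors' deposited table. Socs36E at 0.96 (SE 0.34, adjusted p = 0.0704), upd3 at 0.94 (SE 0.33, adjusted p = 0.0691) and upd2 at 0.79 (SE 0.33, adjusted p = 0.16) did not pass in the authors' deposited table.

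TotA at -0.73 (adjusted p = 0.253), TotC at -0.76 (adjusted p = 0.232), hop at 0.36 (adjusted p = 0.43) and Stat92E at 0.21 (adjusted p = 0.587) were not called in the authors' deposited table either. Side by side, TotM was at -2.02 in the authors' deposited table for axenic foxo mutants, and at -1.94 in conventional foxo mutants and -2.03 in daw 3'UTR foxo mutants in the limma fits above, each against the WT of its own set. The call in daw 3'UTR foxo mutants was lost without WT replicate 1, and against daw 3'UTR mutants TotM was at -0.83 (limma adjusted p = 0.355). The authors' fold changes and the limma differences are different measures, so their sizes are not strictly comparable. Of the 4 STAT targets vkg (0.53, adjusted p = 0.0272) and zfh1 (0.62, adjusted p = 0.0457) were higher in axenic foxo mutants in the authors' deposited table. Of the 10 hemocyte markers 3 were higher in the authors' deposited table, PPO2 (0.88, adjusted p = 4.29e-06), PPO1 (0.68, adjusted p = 0.00818) and Hml (0.72, adjusted p = 0.0155), and the other 7, from -0.02 for srp to 0.46 for eater, were not called. Axenic and conventional flies were not tested against each other.

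**Figure D5:**
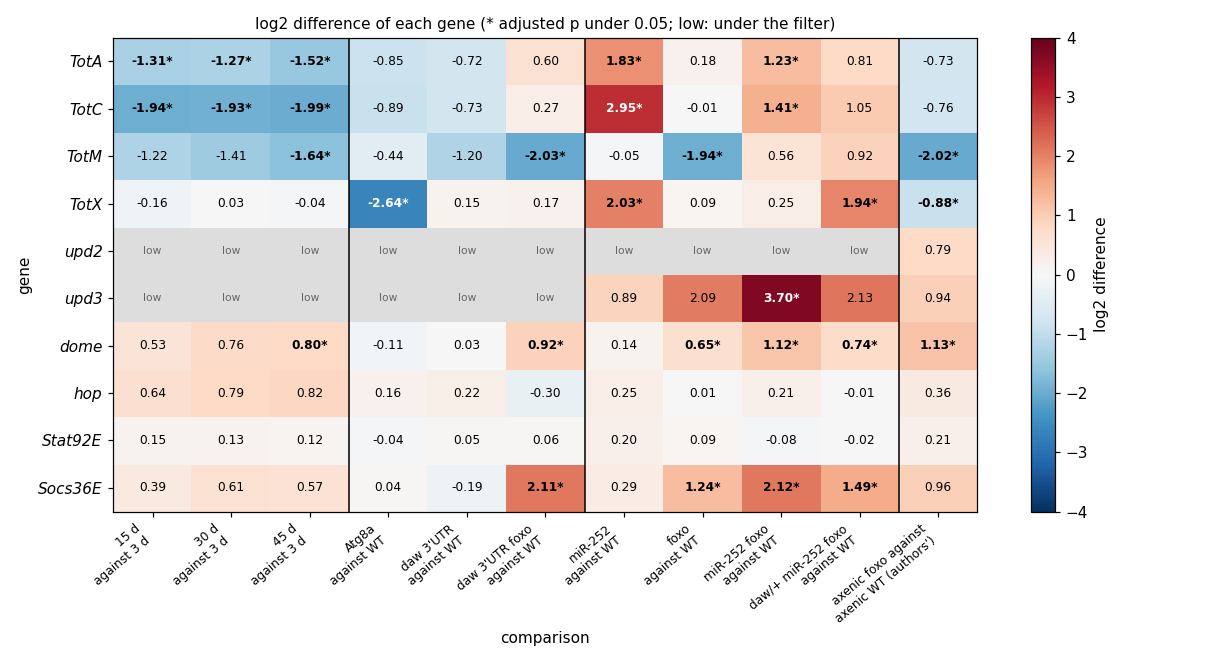
Log2 difference of each gene (rows) in each comparison (columns), in colour and as a number, with red for higher and blue for lower in the group named first, an asterisk for an adjusted p under 0.05 and grey for genes under the filter. TotA and TotC run blue with age and red in miR-252 mutants, TotM is blue in each column with foxo except the 2 miR-252 foxo genotypes, and Socs36E and dome are red in the columns with foxo.

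Across libraries the Turandot genes split into a pair and 2 others. Over the 12 male, 12 Atg8a and daw, and 15 miR-252 and foxo libraries, TotA and TotC correlated at r = 0.98, 0.98 and 0.94 (Pearson, log2 values), as a description over libraries that share groups. TotA correlated at 0.78, 0.33 and 0.42 with TotM and at 0.48, 0.47 and 0.50 with TotX. With Socs36E the value was -0.69 in males and 0.56 and 0.23 in the female sets, so the sign differed between tables. Male 3 d replicate 3 was the highest male library for TotA and the lowest for Socs36E, and no r was taken without it. After TotC, the genes most like TotA by their lowest r over the 3 tables, among 3572 ranked, were fbp (0.75, 0.80 and 0.63), Cdc50 (0.53, 0.65 and 0.73), SPE (0.49, 0.79 and 0.65) and regucalcin (0.66, 0.48 and 0.57).

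Socs36E ran most closely with dome within the pathway, at r = 0.90 over male, 0.92 over Atg8a and daw, and 0.88 over miR-252 and foxo libraries. It correlated at 0.69, 0.91 and 0.88 with upd2 and at 0.69, 0.91 and 0.85 with upd3, genes at few reads. hop (0.86, -0.79 and 0.07) and Stat92E (0.64, 0.07 and -0.44) held no common sign with Socs36E across tables. The male r values lean on 3 d replicate 3, the lowest male library for Socs36E, dome, hop and Stat92E alike, and were not taken without it. By lowest r over the 3 tables, the genes most like Socs36E were Mrp4 (0.90, 0.97 and 0.89), dome, AspRS (0.85, 0.94 and 0.86), Pak3 (0.86, 0.91 and 0.84) and LpR2 (0.82, 0.89 and 0.88).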

How the data were processed

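RNA-seq of dissected muscle was taken as deposited. Per the submitters' processing notes, the tools were STAR, HTSeq and DESeq, with no versions given, and the genome was dm6. The signal in 3 deposited tables is a read count of each gene normalised by the authors within its table, and tables were never tested against each other. For axenic flies the authors' deposited table gives a signal mean, a log2 fold change with its SE, and Wald p-values. Ago1 precipitates of whole flies were not analysed here.

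Each normalised value was a whole multiple of 1 read within 0.01 for 100% of the values, which gave 2838395 to 3487569 reads per male library, 2358162 to 4023468 per library of the Atg8a and daw set and 3294056 to 4078819 per library with miR-252 and foxo mutants. Genes of the male table were joined to symbols by identifier. Of 10258 names in the miR-252 and foxo table, 8241 matched a current symbol, 1631 a symbol in another deposited table and 358 a RefSeq synonym, and 28 stayed unmatched. Its 3 WT columns cannot be tied to single samples by name and stand for that group only. Libraries of a group differed beyond sampling noise in every table. Coordinates and exon lengths come from the dm6 annotation.

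The test was limma-trend (limma 3.58.1 in R 4.3.3), applied to log2(normalised reads + 1) of genes with a table mean of at least 10, which were 8393, 8271 and 8357 genes. Each table was fitted once with all its groups, and p-values had Benjamini-Hochberg adjustment over all genes tested. Calls were at an adjusted p under 0.05 with no fold minimum. Fold changes on this scale understate changes of low genes. The fits were tested on simulated reads. Alternatives were a pseudocount of 8, no filter, upper quartile rescaling, tests on whole reads with edgeR (4.0.16) or DESeq2 (1.42.0), only the groups compared, the replicate number as a block, and each library left out.

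The members and lists were chosen with earlier results of these data known. Named genes were the 10 members and the targeted genes, at most 4 called genes of each list in a comparison by smallest adjusted p, and for TotA and Socs36E the 5 genes with the highest lowest Pearson r over the 3 tables, among genes with a mean of at least 50 in each and no CG or CR symbol. The lists were other ligand and receptor genes (upd1, et), 10 regulators, 7 stress kinase and NF-kappaB genes, 4 STAT targets, and markers of muscle, fat body, hemocytes, gut, trachea and cuticle, and neurons. Of trachea and cuticle markers at most 2 were called in a comparison. The other Turandot genes TotB, TotE, TotF and TotZ were listed in none of the 3 tables and were not analysed here.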

Additional observations from a re-analysis of the deposited data

Results flagged for a closer look

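TotM was the 1 member whose response to the loss of foxo differed with the state of miR-252. The interaction of the 2 mutations was 2.55 ± 0.54 on the log2 scale (limma adjusted p = 0.0138). Loss of foxo went with a log2 difference of -1.94 in flies that kept miR-252 (foxo against WT), and with 0.61 in flies that lacked it (miR-252 foxo against miR-252). TotM was at 34.4, 96.5 and 42.6 normalised reads in miR-252 foxo mutants, 36.5, 40.5 and 26.2 in miR-252 mutants, 5.53, 16.4 and 6.28 in foxo mutants and 43.3, 32.9 and 30.1 in WT.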

How the results depend on the processing

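Calls of members over the 3 male comparisons numbered 8, and 4 with only the groups compared in the fit, which leaves fewer samples to estimate the spread. The 4 lost were TotA at 15 d (adjusted p = 0.0854) and 30 d (0.102), TotC at 30 d (0.0524) and dome at 45 d (0.211), all from limma. The other settings gave 8 or 9. With 1 library left out the male count ran from 6 to 12, that of the Atg8a and daw set from 3 to 5 (4 with all libraries), that of the miR-252 and foxo set against WT from 11 to 17 (14 with all) and that between mutants from 9 to 14 (13 with all). The male count was 12 without 3 d replicate 3. Of all genes, 30.8%, 42.1% and 48.7% were then called at 15, 30 and 45 d, against 7.97%, 13.5% and 18.9% with all libraries. For the other left-out libraries, the fit of only the groups compared and the replicate block, the share of all genes called was not counted. Without male 3 d replicate 3, Stat92E changed sign, at -0.18 at 30 d and -0.20 at 45 d, where it was 0.13 and 0.12 with all libraries, and the cause was not tested. Its values with 1 library left out ran from -0.18 to 0.29 at 30 d and from -0.20 to 0.28 at 45 d. No other member value that was called in either fit changed sign under any setting tried.

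With the replicate number as a block the counts were 8 in males, 4 in the Atg8a and daw set and 16 between mutants, where TotA and dome in miR-252 foxo against foxo mutants and Stat92E in miR-252 foxo against miR-252 mutants were added. No paired analysis was possible for the miR-252 and foxo set against WT because its WT columns share no numbers with the mutants. The deviations of libraries with the same number correlated at -0.13 to 0.09 in males (0 of 18 pairs over 0.1), -0.13 to 0.17 in the Atg8a and daw set (5 of 18) and -0.09 to 0.28 among miR-252 and foxo mutants (5 of 18). In the last of these 10 of 12 libraries correlated best with their own number, a hint from the data and not from the design. The block changed no other call. Depth limits upd2 and upd3, which had at most 10 reads in any male or WT library.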

Other observations

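The proportion between the paired neighbours TotA and TotC varied between libraries, a pattern chosen after its values were seen and given as a description. An exact permutation test of 3 libraries against 3 can give no p under 0.1, so it cannot decide here. Over 16 comparisons the lowest adjusted p from that test was 0.229. The ratio of TotA to TotC normalised reads was 1.36, 1.45 and 1.21 in miR-252 mutants, against 2.41, 3.07 and 3.40 in WT, with no overlap. It had a geometric mean of 2.57 in miR-252 foxo mutants, 3.35 in foxo mutants and 2.47 in daw/+ miR-252 foxo mutants, against 2.93 in WT, and in these 3 genotypes it overlapped with WT. In male muscle the ratio was 2.17, 2.04 and 1.78 at 3 d, with geometric means of 3.09, 3.13 and 2.76 at 15, 30 and 45 d, all later libraries lying above the 3 d libraries. In the Atg8a and daw set the ratio went the other way in daw 3'UTR foxo mutants, at 3.27, 3.46 and 3.28, against 2.36, 2.69 and 2.98 in WT, without overlap. Its geometric mean was 2.73 in Atg8a mutants and 2.69 in daw 3'UTR mutants, against 2.66 in WT, with overlap.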
